A study of Mus musculus with 8 samples.

Results

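The nuclear-encoded genes of the mitochondrial respiratory chain and ATP synthase were followed in mouse regulatory T (Treg) cells that lacked Relb, Nfkb2 or both. Members were the genes of the deposited table whose symbol starts with Ndufa, Ndufb, Ndufc, Ndufs, Ndufv, Uqcr, Cox4, Cox5, Cox6, Cox7, Cox8 or Atp5, or is Sdha, Sdhb, Sdhc or Sdhd. Of 22432 genes in the table, 89 carried such a symbol. Cox7b2, Cox8c and Ndufs5 were listed at 0 in every library and were left out. Cox7c and Atp5g2 were dropped because replicate 1 and replicate 2 differed by at least 2 log2 units in all 4 genotypes. The 84 genes that stayed were the members. Of these, 81 reached an average un-logged value of 1 and were tested, and Cox6a2, Cox8b and Ndufa4l2 did not pass that filter.

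Treg cells are the Foxp3-expressing CD4+ T cells that restrain immune responses, and Relb and Nfkb2 encode the subunits of the alternative NF-kB pathway. All 8 samples were C57Bl/6 Treg cells that carried the Foxp3-CRE-YFP allele, sorted as YFP+ cells from a pool of spleen and lymph nodes, with 2 libraries per genotype. WT carried this allele alone, RelB-KO added RelB F/F, Nfkb2-KO added nfkb2 F/F, and DKO added both floxed genes, so deletion was limited to cells that had expressed Foxp3. Every sample was cultured for 16 h on plates coated with 5 µg/ml anti-CD3, with 1 µg/ml anti-CD28, 2 µg/ml of a stimulating anti-OX40 and 10 ng/ml IL-2. Ages, and whether a replicate is another animal, are not given in the sources used here. The p-values therefore measure the spread between these libraries, which may be technical. The 2 WT libraries differed in sex-linked transcripts, as given below, so they were not made from the same cells.

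The respiratory chain sits in the inner mitochondrial membrane. Complex I takes electrons from NADH and complex II takes them from succinate. Complex III passes them to cytochrome c, and complex IV passes them from cytochrome c to oxygen. The protons pumped on the way drive complex V, the ATP synthase. Most subunits are encoded in the nucleus and imported, while a small core set is encoded in mitochondrial DNA. Treg cells are known for their reliance on oxidative metabolism, and activation through CD3 and CD28 is known to raise both glycolysis and respiration in T cells.

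The members fell into complex I (35), complex II (4), complex III (8), complex IV (16) and complex V (14), and 7 were taken in by their symbol although they are not subunits. Those 7 were the complex I assembly factors Ndufaf1, Ndufaf2, Ndufaf3 and Ndufaf4, the supercomplex factor Cox7a2l, and Atp5s and Atp5sl. Ndufa4 was counted in complex IV, to which it is now assigned. None of the 13 mitochondrially encoded subunits was analysed here. Values are the deposited log2 expression values, called levels below, and a difference is between 2 genotype means on the log2 scale ± its standard error from limma. Calls needed a p under 0.05 after Benjamini-Hochberg adjustment over 13797 genes. In bulk RNA of this kind, fewer cells of a type and less RNA per cell cannot be told apart.

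The libraries matched their labels at the deleted genes. Relb stood at 10.66 and 10.49 in WT, 10.84 and 10.83 in Nfkb2-KO, 6.35 and 6.52 in RelB-KO and 6.74 and 7.08 in DKO. Nfkb2 stood at 12.79 and 12.62 in WT, 12.67 and 12.31 in RelB-KO, 8.75 and 8.79 in Nfkb2-KO and 9.29 and 9.85 in DKO. Foxp3 lay between 13.95 and 14.28 in all libraries. Of the listed T cell markers, 9 of 10 were in the table, and all 9 had a mean of at least 9, as did all 6 Treg markers. None of the 8 B cell, 10 myeloid and dendritic, or 8 CD8 T and NK cell markers reached that level. WT replicate 1 stood apart in sex-linked transcripts, with Ddx3y at 11.60 against 4.25 to 4.35 in the other libraries and Xist at 8.17 against 14.61 to 15.13.

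Nuclear respiratory genes are textbook targets of NRF1, of the ETS-family factor GABP, of YY1 and of the ERR receptors. A promoter window of 300 bases, from 250 before to 50 after the annotated start, was found for 70 members. The 6 windows below, from RefSeq on build GRCm38.p6, show the kinds of promoter in the set. Sdha holds 3 NRF1 matches, and Sdhd joins NRF1, ETS and ERR matches. Cox6a1 holds 2 NRF1 matches and an ETS match, and Ndufs4 holds a YY1 match. Ndufb6 has the only NF-kB match. Ndufa4 had the smallest p in Nfkb2-KO and has no match. Capitals mark the matches, and every window lies on the minus strand and reads 5′ to 3′. The windows span chr13:74350191-74350490 (Sdha), chr9:50603800-50604099 (Sdhd), chr5:115348909-115349208 (Cox6a1), chr13:114388045-114388344 (Ndufs4), chr4:40279372-40279671 (Ndufb6) and chr6:11907401-11907700 (Ndufa4).
Sdha: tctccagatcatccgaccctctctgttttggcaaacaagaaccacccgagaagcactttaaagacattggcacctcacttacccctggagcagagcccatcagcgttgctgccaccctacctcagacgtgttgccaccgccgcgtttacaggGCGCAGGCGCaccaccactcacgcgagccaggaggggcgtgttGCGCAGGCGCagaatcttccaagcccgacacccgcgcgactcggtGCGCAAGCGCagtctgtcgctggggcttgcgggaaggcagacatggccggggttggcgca
Sdhd: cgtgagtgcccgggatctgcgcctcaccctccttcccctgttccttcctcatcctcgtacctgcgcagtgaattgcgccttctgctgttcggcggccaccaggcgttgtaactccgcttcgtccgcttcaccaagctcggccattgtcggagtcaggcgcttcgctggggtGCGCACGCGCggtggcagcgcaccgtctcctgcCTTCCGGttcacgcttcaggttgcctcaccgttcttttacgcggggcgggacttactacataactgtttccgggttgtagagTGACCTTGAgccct
Cox6a1: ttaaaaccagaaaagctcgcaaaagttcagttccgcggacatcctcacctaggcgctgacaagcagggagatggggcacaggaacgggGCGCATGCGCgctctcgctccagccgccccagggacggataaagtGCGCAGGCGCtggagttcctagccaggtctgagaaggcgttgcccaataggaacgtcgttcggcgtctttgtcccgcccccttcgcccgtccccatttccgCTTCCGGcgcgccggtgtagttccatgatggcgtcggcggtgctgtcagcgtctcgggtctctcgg
Ndufs4: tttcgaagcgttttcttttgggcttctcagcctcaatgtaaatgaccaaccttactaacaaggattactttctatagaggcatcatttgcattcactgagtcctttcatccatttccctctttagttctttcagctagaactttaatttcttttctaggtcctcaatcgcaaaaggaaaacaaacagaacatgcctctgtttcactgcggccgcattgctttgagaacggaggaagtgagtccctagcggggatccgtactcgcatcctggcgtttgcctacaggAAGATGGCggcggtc
Ndufb6: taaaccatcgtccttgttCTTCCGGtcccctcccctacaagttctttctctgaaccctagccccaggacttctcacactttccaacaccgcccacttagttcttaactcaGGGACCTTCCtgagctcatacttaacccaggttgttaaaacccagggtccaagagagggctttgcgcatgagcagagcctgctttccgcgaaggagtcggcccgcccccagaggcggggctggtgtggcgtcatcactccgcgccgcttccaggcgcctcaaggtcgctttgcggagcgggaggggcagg
Ndufa4: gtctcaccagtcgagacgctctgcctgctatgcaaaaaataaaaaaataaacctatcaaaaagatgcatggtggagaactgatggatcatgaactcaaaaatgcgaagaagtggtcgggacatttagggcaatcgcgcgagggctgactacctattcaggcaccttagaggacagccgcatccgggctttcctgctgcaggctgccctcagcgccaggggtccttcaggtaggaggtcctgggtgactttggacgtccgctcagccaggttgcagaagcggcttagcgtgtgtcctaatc

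The letters searched, on both strands, were GCGCA, any base and GCGC for NRF1, CCGGAAG for ETS, AAGATGGC for YY1, TCAAGGTCA for ERR and, for NF-kB, GGGA, any 2 bases and TTCC. None of the matches in the printed windows overlapped another. In Sdha the NRF1 matches began at positions -98, -55 and -10. In Sdhd the NRF1 match began at position -79, the ETS match at -46 and the ERR match at 36, counting the start as position 0. The NF-kB match of Ndufb6 began at position -140.

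NRF1 letters were found in 15 of the 70 member promoters (21.4%), against 6.6% of the windows of 17491 coding genes. ETS letters were found in 16 (22.9% against 11.9%), YY1 letters in 10 (14.3% against 3.22%) and ERR letters in 2 (2.86% against 0.332%), the latter in Sdhd and Atp5g3. At least 1 of the NRF1, ETS and YY1 motifs was present in 36 member promoters (51.4%), against 19.5% of all windows. All 10 YY1 matches were centred between position 0.5 and position 41.5, while the 21 NRF1 matches had a median centre of -50.5. The NF-kB letters were in 1 of the 70 windows (1.43% against 1.44%), so their share was near that of all promoters. SP1 letters (GGGGCGGGG) were at a like share, 17.1% against 15.5%, CRE letters (TGACGTCA) were at 5.71% against 2.34%, and TATAAA was at 8.57% against 13.3%. Median GC content was 57.8% in the member windows and 56.3% in all windows. The matches are descriptions of letters and were not tested for binding.

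Complex V held the most abundant transcripts. By level, Sdha of complex II at 12.36 and Uqcrc2 of complex III at 12.04 lay above every complex IV gene. The highest of complex IV was Cox4i1 at 11.81. Exonic length was set aside by dividing by kilobases of annotated exon, which gives a level per kb. The highest levels per kb were those of the catalytic subunits of the ATP synthase, Atp5b at 12.41 and Atp5a1 at 12.40, followed by the complex IV subunits Cox8a at 11.58, Cox6b1 at 11.52 and Cox6a1 at 11.38. The median level per kb was 9.35 in complex I, 10.13 in complex II, 10.29 in complex III, 10.35 in complex IV, 10.08 in complex V and 7.83 in the genes that are not subunits. Within complex I the highest were Ndufa2 at 10.68 and Ndufa1 at 10.39, and the core NADH-binding flavoprotein gene Ndufv1 stood at 9.46. The exon length is the union of all annotated exons, so a gene with long minor transcripts is placed lower. The header calls the deposited values RPKM, and if that held, this order would divide by length a second time.

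**Figure D1:**
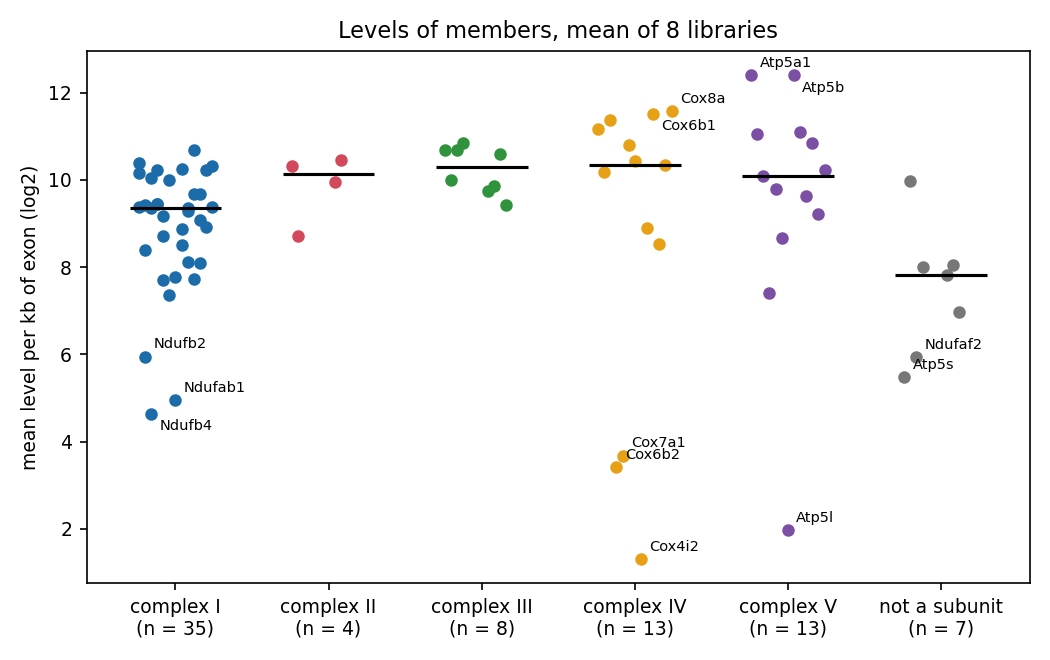
Level per kb of exon (log2, mean of 8 libraries) of each tested member with an exon length, by complex, with a line at each median. Atp5b and Atp5a1 lie highest, and Cox4i2 (1.31), Atp5l (1.97), Cox6b2 (3.41) and Cox7a1 (3.68) lie far below the other genes of their complexes.

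The isoforms known from heart, muscle, lung and testis were near the floor, and their broadly expressed partners were abundant. Cox4i1, the broad isoform of subunit 4, had a mean level of 11.81, and the lung isoform Cox4i2 had 0.97. The testis isoform Cox6b2 stood at 3.56 against 11.02 for Cox6b1, and the heart and muscle isoform Cox7a1 at 2.78 against 10.27 for Cox7a2. Cox6a2 and Cox8b, also of heart and muscle, stood at -0.67 and -1.72 against 10.87 for Cox6a1 and 10.89 for Cox8a, and Ndufa4l2 stood at -1.72 against 10.90 for Ndufa4. The 8 libraries hardly differed at these low levels: Cox4i2 ranged only from 0.95 to 1.02, and the deposited scale gives nearly one value to all libraries for weakly expressed genes. Of the genes for subunit c, whose ring turns in the membrane, Atp5g3 stood at 11.98, Atp5g1 at 9.70 and the dropped Atp5g2 at 7.87.

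Some subunits that a complete complex contains had low values here. Ndufs5 was listed at 0 in all libraries, Atp5l (subunit g of the ATP synthase) had a mean level of 4.66 and Ndufb4 one of 5.58. The median over all tested members was 10.13. Atp5l has 8 annotated pseudogenes with a stretch of at least 150 bases at 95% identity or more, and Ndufb4 has 1. The part of such copies in these low values was not tested.

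The largest differences between libraries of these genes lay between replicate 1 and replicate 2 and not between genotypes. Cox5b, a zinc-binding subunit of complex IV, stood at 8.67, 8.64, 8.60 and 8.46 in the replicate 1 libraries of WT, RelB-KO, Nfkb2-KO and DKO and at 10.47, 10.45, 10.67 and 10.64 in the replicate 2 libraries. Atp5h, subunit d of the ATP synthase stalk, stood at 9.62, 9.41, 9.58 and 9.55 in replicate 1 and at 11.09, 11.05, 11.32 and 11.19 in replicate 2. Replicate 1 was lower in every genotype for both genes, with a mean replicate 1 minus replicate 2 of -1.97 for Cox5b, -1.62 for Atp5h and -1.30 for Atp5g1. These 3 were the members nearest to the limit of 2 from the inside. Beyond it, Cox7c had 7.42 to 9.50 in WT and a mean difference of -2.34, and Atp5g2 had one of -2.83. The same split was seen in genes outside the set: Gapdh stood at 7.81 to 7.84 in replicate 1 and 13.29 to 13.64 in replicate 2, and Cycs, the cytochrome c gene, at 6.99 to 7.13 and 9.35 to 9.71.

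Genes with many annotated pseudogene copies showed the split most. Among the 82 tested genes with an annotation (members and the 2 dropped), 20 had at least 1 copy (24.4%), against 7.84% of 13635 tested genes. The median replicate 1 minus replicate 2 was -0.10 in the 62 genes without a copy, -0.28 in the 16 with 1 or 2 copies and -1.22 in the 4 with 3 or more. Over all annotated tested genes these medians were 0.01, -0.09 and -0.91. Across the 82 genes the copy number and the replicate difference had Pearson's r of -0.37 and Spearman's rho of -0.41, a description over genes that share the same 8 libraries. Exceptions stood on both sides: Atp5l, with 8 copies, had a difference of 0.07, and Cox5b had -1.97 with no copy found. The part of shared reads in the split was not tested.

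**Figure D2:**
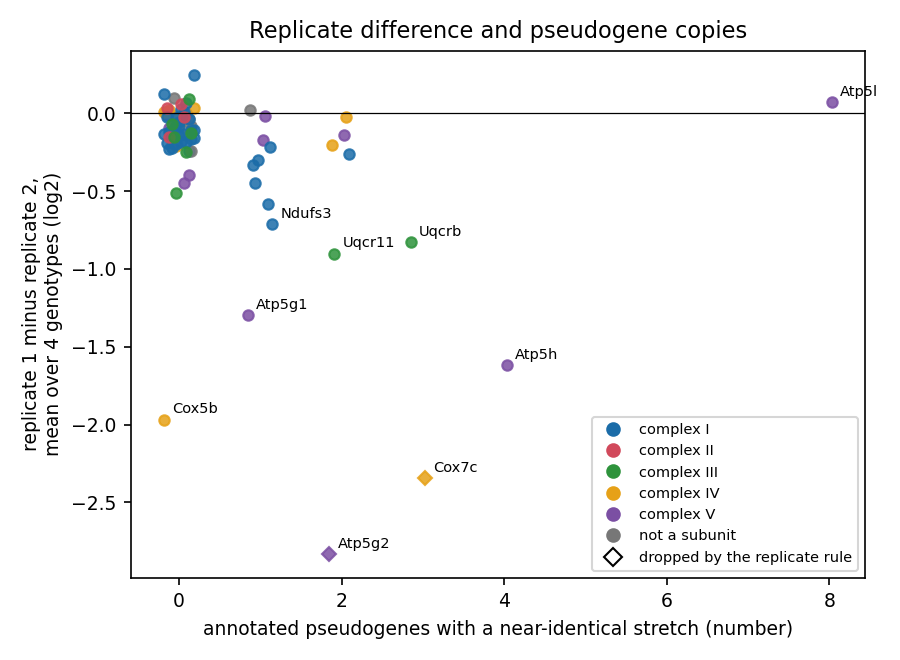
Number of annotated pseudogenes with a near-identical stretch (x axis) against replicate 1 minus replicate 2, averaged over the 4 genotypes (y axis, log2), for 82 tested genes coloured by complex. Most genes without a copy lie near 0, while Cox5b (-1.97), Atp5h (-1.62), Cox7c (-2.34) and Atp5g2 (-2.83) lie far below and Atp5l, with 8 copies, lies near 0.

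In Nfkb2-KO Treg cells most respiratory chain genes had slightly higher levels than in WT, and none passed the test. The median difference over the 81 tested members was 0.13, with 74 members higher and 7 lower, while the median over all 13797 genes was 0.00, with 50.4% higher. The medians were 0.09 within replicate 1 and 0.18 within replicate 2, and 60 members were higher in both replicates and 3 lower in both. The differences ran from -0.10 (Atp5l) to 0.33 (Uqcrb), against a median standard error of 0.11.

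By limma, 0 of 81 members were called in Nfkb2-KO against WT, where 0.341% of all tested genes were called. The smallest adjusted p was 0.232, for Ndufa4. The 47 genes called there differed by 0.33 or more, with a median size of 1.07, so differences the size of the members' median were below every size called. At an unadjusted p under 0.05 there were 7 members, and 10.7% of all genes passed the same limit. With the replicate number as a block there were again 0 calls, with 2.91% of all genes called, a smallest adjusted p of 0.0659, a median size of 0.55 and a smallest of 0.05 in the 402 genes called, and 21 members at an unadjusted p under 0.05 (18.3% of all genes). Both Nfkb2-KO libraries lay above both WT libraries in 46 members, an arrangement found in 21.6% of all tested genes, and below both in 2 members, found in 20.9%. Among genes with a mean level of at least 9, 65 of 67 members were higher with a median of 0.13, against 57.6% of 6468 genes and a median of 0.03. Without WT replicate 1, the library that stood apart in sex-linked transcripts, the median was 0.10 with 61 of 81 members higher. That value sets both Nfkb2-KO replicates against WT replicate 2 alone, and the members' median was higher in replicate 2 in every genotype. Within replicate 2, which also leaves that library out, the median was 0.18 with 73 of 81 higher.

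Markers of other cells were measured beside this. The summed level of the myeloid and dendritic list (log2 of the summed un-logged values, 10 genes, none listed at 0) was 9.46 to 9.69 in Nfkb2-KO, against 8.92 to 9.18 in WT, 8.75 to 9.36 in RelB-KO and 8.65 to 9.03 in DKO. Over the 9 tested genes of that list the median difference from WT was 0.00 in Nfkb2-KO, with 5 higher. Its largest difference was that of Zbtb46, which stood at 8.49 and 8.07 in WT against 9.12 and 9.01 in Nfkb2-KO. Lyz2, Csf1r and Itgam differed by -0.07, 0.01 and 0.03. The B cell list, with Pax5 as the 1 of 8 genes listed at 0, was 8.09 to 8.17 in Nfkb2-KO, 7.88 to 8.06 in WT and 8.19 to 8.21 in DKO. The CD8 T and NK list was 9.52 to 9.72 in Nfkb2-KO and 9.61 to 9.87 in WT. With the replicate block, 1 of the 9 tested myeloid and dendritic genes and 1 of the 6 tested B cell genes were called higher in Nfkb2-KO than in WT. In that fit 2.91% of all tested genes were called. The part of such cells in the members' levels was not tested.

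**Figure D3:**
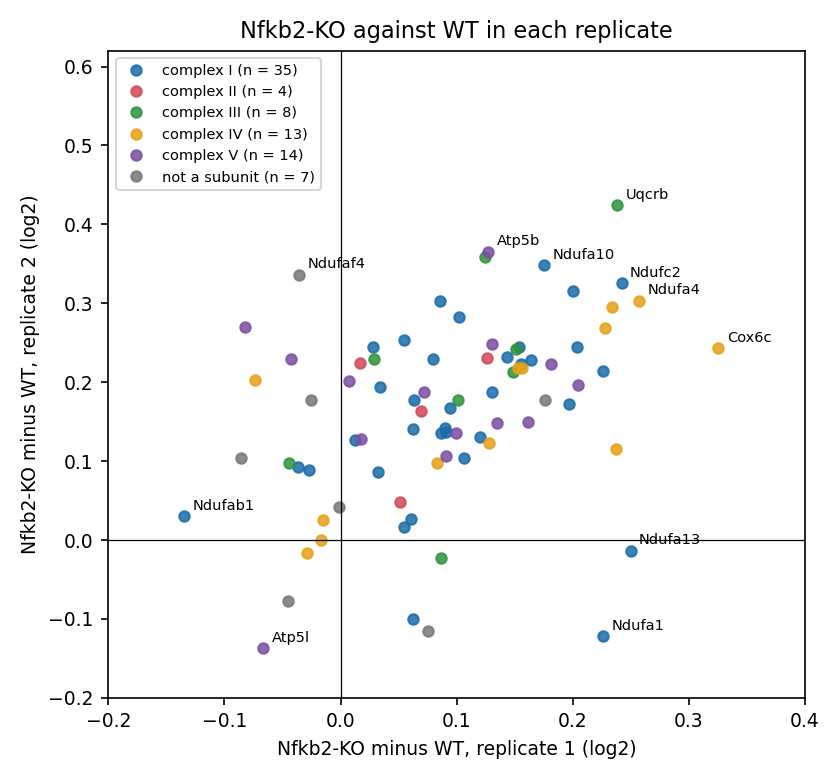
Nfkb2-KO minus WT (log2) in replicate 1 (x axis) against replicate 2 (y axis) for the 81 tested members, 1 point per gene, coloured by complex. Of these, 60 lie above 0 in both replicates and 3 below 0 in both, and across the genes Pearson's r was 0.38 and Spearman's rho 0.42 (n = 81 genes), against 0.54 and 0.50 over all 13797 tested genes.

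Complex IV, which reduces oxygen to water, had a median difference of 0.18 in Nfkb2-KO, with 11 of 13 tested genes higher. In 9 of the 13, both Nfkb2-KO libraries lay above both WT libraries, against 21.6% of all tested genes. The reverse was found in 1, against 20.9%. Ndufa4, Cox6c and Cox5a were picked from those 9 for their large differences, which favours Nfkb2-KO standing highest. Ndufa4 (chromosome 6, 11900292 to 11907497), a small subunit first assigned to complex I, stood at 10.82 and 10.79 in the WT libraries, 10.83 and 10.77 in RelB-KO, 11.08 and 11.09 in Nfkb2-KO and 10.90 and 10.95 in DKO. The Nfkb2-KO libraries were the 2 highest of the 8, the DKO libraries came next, and RelB-KO overlapped WT. The difference from WT was 0.28 ± 0.07 (n = 2 and 2, limma adjusted p = 0.232). Cox6c (chromosome 15, 35925886 to 35938246), another small nuclear subunit, stood at 10.25 and 10.25 in the WT libraries, 10.24 and 10.33 in RelB-KO, 10.58 and 10.49 in Nfkb2-KO and 10.32 and 10.42 in DKO, and its Nfkb2-KO libraries were again the 2 highest, with a difference of 0.28 ± 0.08 (limma adjusted p = 0.267). Cox5a (chromosome 9, 57521274 to 57532426), an early-assembling nuclear subunit, stood at 11.12 and 11.08 in the WT libraries, 11.12 and 11.21 in RelB-KO, 11.35 and 11.37 in Nfkb2-KO and 11.25 and 11.47 in DKO. Here Nfkb2-KO and DKO overlapped each other and lay above WT, with differences of 0.26 ± 0.09 in each. Cox6b1, which lies on the intermembrane side, had 0.18 ± 0.07.

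Complex III, which carries electrons from ubiquinol to cytochrome c, had a median of 0.16, with 8 of 8 genes higher. Uqcrfs1 (chromosome 13, 30540308 to 30545362), the Rieske iron-sulphur protein, stood at 10.96 and 10.89 in WT against 11.08 and 11.25 in Nfkb2-KO, with a difference of 0.24 ± 0.13. The core protein gene Uqcrc2 stood at 12.06 and 11.86 in WT against 12.21 and 12.11 in Nfkb2-KO and the hinge protein gene Uqcrh at 11.11 and 11.14 in WT against 11.26 and 11.35 in Nfkb2-KO. These 3 genes were picked from those with both Nfkb2-KO libraries above both WT libraries. That arrangement was found in 4 of the 8 complex III genes, against 21.6% of all tested genes. Uqcrb (chromosome 13, 66900617 to 66905378), a subunit near a quinone site that was singled out after its values were seen, stood at WT 9.30 and 10.06, RelB-KO 9.38 and 10.12, Nfkb2-KO 9.53 and 10.48, DKO 9.36 and 10.23. Its difference of 0.33 ± 0.46 was the largest of the set, but the replicates lay so far apart that the groups overlapped, and the limma adjusted p was 0.891. With the replicate block its standard error was 0.08 and its adjusted p 0.0659. Uqcrb has 3 annotated pseudogene copies.

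Complex I, the NADH dehydrogenase, had a median of 0.13, with 33 of 35 genes higher. Both Nfkb2-KO libraries lay above both WT libraries in 21 of the 35, against 21.6% of all tested genes. Ndufv2, Ndufc2 and Ndufa10, given below, were picked from those 21 for their large differences. All 7 nuclear core subunits, among them the carriers of the flavin and the iron-sulphur clusters, were higher, with a median of 0.15. The core iron-sulphur subunit gene Ndufv2 (chromosome 17, 66078638 to 66101559) stood at 10.69 and 10.65 in the WT libraries, 10.64 and 10.73 in RelB-KO, 10.89 and 10.96 in Nfkb2-KO and 10.74 and 10.86 in DKO. Nfkb2-KO was the highest genotype and did not overlap any other, with 0.26 ± 0.08 over WT (limma adjusted p = 0.325). Among the accessory subunits, Ndufc2 stood at 9.75 and 9.79 in WT against 10.00 and 10.11 in Nfkb2-KO and Ndufa10 at 10.50 and 10.45 in WT against 10.68 and 10.80 in Nfkb2-KO, differences of 0.28 ± 0.14 and 0.26 ± 0.13. Ndufb9 and Ndufb10 had smaller differences of 0.20 ± 0.07 and 0.19 ± 0.08. The 2 complex I genes below 0 were Ndufab1, the acyl carrier protein, at -0.05 ± 0.17, and Ndufv3 at -0.02 ± 0.10.

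Complex II, which is also the succinate dehydrogenase of the citric acid cycle, had a median of 0.12, with 4 of 4 genes higher. The flavoprotein gene Sdha stood at WT 12.39 and 12.32, RelB-KO 12.37 and 12.28, Nfkb2-KO 12.45 and 12.37, DKO 12.34 and 12.33, and the iron-sulphur subunit gene Sdhb at WT 11.15 and 10.99, RelB-KO 11.05 and 11.00, Nfkb2-KO 11.27 and 11.22, DKO 11.02 and 11.16. The membrane anchor genes were Sdhc at WT 10.42 and 10.29, RelB-KO 10.36 and 10.49, Nfkb2-KO 10.49 and 10.46, DKO 10.35 and 10.47, and Sdhd at WT 10.66 and 10.64, RelB-KO 10.69 and 10.81, Nfkb2-KO 10.68 and 10.86, DKO 10.72 and 11.06. Nfkb2-KO lay above WT without overlap in Sdhb, Sdhc and Sdhd (3 of 4 genes, against 21.6% of all tested genes). It was the highest genotype in Sdhb, while Sdha overlapped between Nfkb2-KO and WT. The differences were 0.05 ± 0.08 for Sdha, 0.18 ± 0.09 for Sdhb, 0.12 ± 0.09 for Sdhc and 0.12 ± 0.13 for Sdhd (limma adjusted p from 0.566 to 0.906).

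Complex V had a median of 0.12, with 13 of 14 genes higher. The catalytic beta subunit gene Atp5b (chromosome 10, 128083273 to 128090391) stood at 14.47 and 14.28 in the WT libraries, 14.40 and 14.41 in RelB-KO, 14.60 and 14.65 in Nfkb2-KO and 14.47 and 14.65 in DKO, with 0.25 ± 0.11 in Nfkb2-KO against WT. The alpha subunit gene Atp5a1 stood at 14.00 and 13.90 in WT against 14.14 and 14.15 in Nfkb2-KO and the peripheral stalk gene Atp5f1 at 11.50 and 11.64 in WT against 11.71 and 11.83 in Nfkb2-KO, differences of 0.19 ± 0.10 and 0.20 ± 0.12. These 3 genes were picked from those with both Nfkb2-KO libraries above both WT libraries. That arrangement was found in 8 of the 14 complex V genes, against 21.6% of all tested genes. The reverse was found in 1 gene, against 20.9% of all tested genes. That gene was Atp5l, the only 1 lower than WT, which stood at WT 4.76 and 4.72, RelB-KO 4.65 and 4.58, Nfkb2-KO 4.69 and 4.58, DKO 4.66 and 4.61. All 6 knockout libraries lay below both WT libraries in Atp5l, with -0.10 ± 0.06 in Nfkb2-KO. The 7 genes that are not subunits had a median of 0.02, with 5 higher. Both Nfkb2-KO libraries lay above both WT libraries in 1 of the 7, against 21.6% of all tested genes. This was Ndufaf3, with 7.86 and 7.77 in WT against 8.04 and 7.94 in Nfkb2-KO, a difference of 0.18 ± 0.11.

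**Figure D4:**
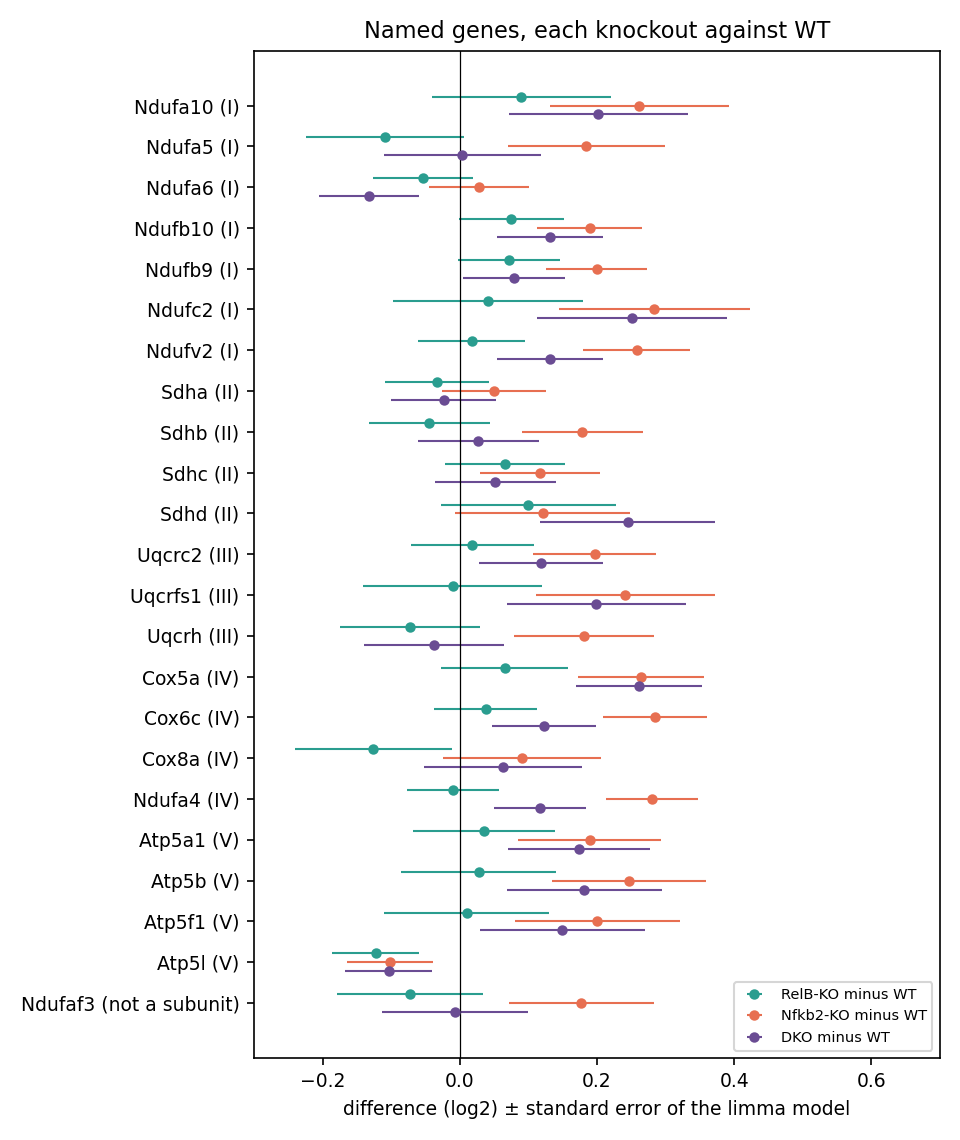
Difference from WT (log2, x axis) ± its limma standard error for the named genes in RelB-KO, Nfkb2-KO and DKO, with the complex in brackets. The Nfkb2-KO points of Ndufa4, Cox6c and Ndufv2 lie near 0.26 to 0.28 and their RelB-KO points near 0, and no gene passed the test.

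The authors' deposited table, which compares each knockout with WT, listed 2 members at an adjusted p under 0.05 in Nfkb2-KO, and 6.22% of the genes with an adjusted p there. In the authors' deposited table these were Ndufa4, with a log2 fold change of 0.31 and an adjusted p of 0.0312, and Uqcrb, with 0.38 and 0.0295. The authors' deposited table gave Cox6c a log2 fold change of 0.32 and an adjusted p of 0.0621. It listed 0 members in RelB-KO, where 0.119% of genes were called, and 0 in DKO, where 1.23% were. At an unadjusted p under 0.05 the authors' deposited table had 16 members in Nfkb2-KO (12.5% of its genes), 0 in RelB-KO (1.54%) and 4 in DKO (8.35%).

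In RelB-KO the respiratory chain genes lay close to WT. The median difference was -0.01, with 34 of 81 members higher, and its sign differed between the replicates (-0.06 in replicate 1 and 0.03 in replicate 2). By limma 0 of 81 were called (0.00725% of all genes), as with the replicate block (0.0145%), and 0 had an unadjusted p under 0.05 in either model, against 1.24% and 3.13% of all genes. Without RelB-KO replicate 1 the median was 0.06, with 60 of 81 higher. Without RelB-KO replicate 2 it was -0.07 with 19 higher, and without WT replicate 2 it was 0.00 with 44 higher. Both RelB-KO libraries lay above both WT libraries in 4 members (9.63% of all genes) and below both in 5 (11% of all genes).

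The RelB-KO members with the smallest unadjusted p were Atp5l, Ndufb10, Ndufb9, Cox8a and Ndufa5. Cox8a, a small subunit of complex IV, stood at 10.89 and 10.87 in WT against 10.66 and 10.86 in RelB-KO, with a difference of -0.13 ± 0.11. Atp5l, whose 8 values are given above, had -0.12 ± 0.06. The complex I accessory genes lay on both sides: Ndufb10 stood at 9.60 and 9.55 in WT against 9.64 and 9.65 in RelB-KO, Ndufb9 at 10.22 and 10.13 in WT against 10.27 and 10.23 in RelB-KO and Ndufa5 at 9.15 and 9.07 in WT against 9.09 and 8.91 in RelB-KO. Their differences were 0.07 ± 0.08, 0.07 ± 0.07 and -0.11 ± 0.11.

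In DKO the median difference from WT was 0.07, with 63 of 81 members higher, and it rested on replicate 2. The median was -0.03 within replicate 1 (32 higher) and 0.18 within replicate 2 (73 higher), and 29 members were higher in both. By limma 0 of 81 were called (0.0145% of all genes), as with the replicate block (0.0652%), and 1 member had an unadjusted p under 0.05 without the block (5.18% of all genes) and 4 with it (12.9%). Without DKO replicate 1 the median was 0.20 and without DKO replicate 2 it was -0.03. Without WT replicate 2 it was 0.11. Both DKO libraries lay above both WT libraries in 21 members (16.6% of all genes) and below both in 2 (17.6%).

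Cox5a was the DKO member at an unadjusted p under 0.05, with 11.12 and 11.08 in WT against 11.25 and 11.47 in DKO. The complex II anchor gene Sdhd stood at 10.66 and 10.64 in WT against 10.72 and 11.06 in DKO and Ndufc2 at 9.75 and 9.79 in WT against 9.89 and 10.15 in DKO. The DKO libraries lay above WT without overlap in all 3, an arrangement found in 16.6% of all tested genes. The 3 were picked for a small p, which favours it. DKO replicate 2 was the highest of the 8 libraries in each of the 3 genes. Their differences were 0.26 ± 0.09, 0.24 ± 0.13 and 0.25 ± 0.14 (limma adjusted p = 0.861 each). Ndufa6, a complex I accessory gene, had the lowest difference, -0.13 ± 0.07, with 10.10 and 10.03 in WT against 9.92 and 9.94 in DKO. Atp5l was the other gene whose DKO libraries both lay below WT. Ndufa4 had 0.12 ± 0.07 in DKO.

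The spread between libraries is best seen in each library's own median. Relative to each gene's mean over the 8 libraries, the members' median stood at -0.07 and -0.03 in WT, -0.13 and 0.02 in RelB-KO, 0.04 and 0.13 in Nfkb2-KO and -0.08 and 0.15 in DKO, while all tested genes stood between -0.01 and 0.00. Both Nfkb2-KO libraries were above 0, and 51 and 73 of 81 members lay above their gene mean there. Within DKO, 9 members lay above their gene mean in replicate 1 and 72 in replicate 2. Replicate 2 was above replicate 1 in all 4 genotypes.

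**Figure D5:**
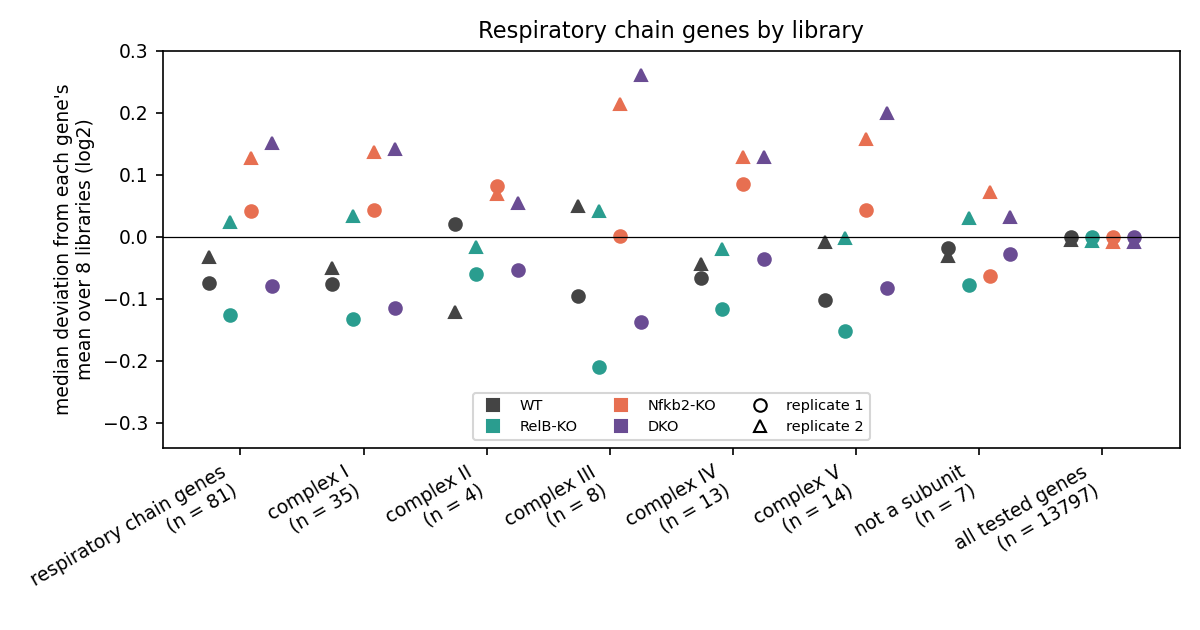
Median deviation of each gene group from its genes' means over the 8 libraries (log2), with 1 point per library, coloured by genotype, circles for replicate 1 and triangles for replicate 2. For all 81 respiratory chain genes, Nfkb2-KO stands at 0.04 and 0.13 and DKO at -0.08 and 0.15, while all tested genes stand between -0.01 and 0.00.

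Comparisons among the knockouts reuse the same libraries, so they are not independent of those with WT. Nfkb2-KO minus RelB-KO had a median of 0.14, with 74 of 81 members higher, 0.15 in replicate 1 and 0.13 in replicate 2. The median was 0.06 without RelB-KO replicate 1, 0.22 without RelB-KO replicate 2, 0.20 without Nfkb2-KO replicate 1 and 0.09 without Nfkb2-KO replicate 2. By limma 0 were called (0.797% of all genes), with a smallest adjusted p of 0.162 and 7 members at an unadjusted p under 0.05 (11.9% of all genes). With the block 0 were called (4.46%), with a smallest adjusted p of 0.0518, for Ndufa4, and 29 members at an unadjusted p under 0.05 (20.1%). Both Nfkb2-KO libraries lay above both RelB-KO libraries in 40 members (20.9% of all genes) and below both in 0 (21.1%).

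DKO minus Nfkb2-KO had a median of -0.06, with 62 of 81 members lower, -0.12 in replicate 1 and 0.01 in replicate 2. By limma 0 members were called (0.768% of all genes; with the block 0 and 5.02%), and 1 had an unadjusted p under 0.05 (9.86% of all genes), or 4 with the block (16.3%). The 1 was Ndufa4, at -0.16 ± 0.07. DKO minus RelB-KO had a median of 0.09 with 68 higher. There 0 were called (0.00725%; with the block 0 and 0.0145%), and 0 members had an unadjusted p under 0.05 (2.88% of all genes), or 3 with the block (8.81%). The interaction asks whether the difference made by Relb loss is another one when Nfkb2 is absent, and is the DKO minus Nfkb2-KO difference with that of RelB-KO from WT subtracted. Its median was -0.05, with 0 called (0.00725%; with the block 0 and 0.471%), 0 at an unadjusted p under 0.05 (4.45%) and 1 with the block (8.36%). Without DKO replicate 1 the medians of DKO minus Nfkb2-KO and of the interaction were 0.06 and 0.05, without DKO replicate 2 they were -0.19 and -0.18, and without RelB-KO replicate 2 the interaction's was 0.02. DKO minus RelB-KO had -0.02 without DKO replicate 2, 0.21 without DKO replicate 1, 0.01 without RelB-KO replicate 1 and 0.16 without RelB-KO replicate 2.

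The difference in Nfkb2-KO was read beside the promoter letters. The median was 0.13 in the 36 tested members with NRF1, ETS or YY1 letters, of which 34 were higher, and 0.12 in the 33 without, of which 29 were higher. For NRF1 alone it was 0.12 with (15 genes) and 0.13 without (54 genes). For YY1 alone it was 0.12 with (10 genes) and 0.13 without (59 genes), and for ETS alone 0.15 with (16 genes) and 0.12 without (53 genes). Ndufb6, with the NF-kB letters, had 0.19 ± 0.11 (limma adjusted p = 0.63).

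Neighbouring mitochondrial pathways were read from lists, and in the model without the block 0 of their genes were called in any knockout against WT. Mitochondrial carriers and import proteins had a median of 0.16 in Nfkb2-KO, with 16 of 16 higher. The import receptor gene Tomm70a stood at 12.31 and 12.20 in WT against 12.47 and 12.50 in Nfkb2-KO and the ADP/ATP carrier gene Slc25a4 at 10.93 and 11.00 in WT against 11.22 and 11.33 in Nfkb2-KO, differences of 0.24 ± 0.08 and 0.31 ± 0.13. The citric acid cycle and pyruvate entry list had a median of 0.14, with 16 of 18 tested genes higher. Its smallest p belonged to Idh3a, a subunit of NAD-dependent isocitrate dehydrogenase, at 11.00 and 10.78 in WT against 11.10 and 11.20 in Nfkb2-KO, followed by its partner Idh3g at 0.14 ± 0.07. The electron carrier list (cytochrome c, cytochrome c1 and coenzyme Q synthesis) had a median of 0.06, with 15 of 18 higher. Etfa, of the electron transfer flavoprotein, had 0.26 ± 0.14 and Coq3, of coenzyme Q synthesis, 0.15 ± 0.09.

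Lists nearer to the control of the organelle had smaller medians. Assembly factors of the complexes, of which 4 are also members, had a median of 0.05, with 24 of 32 higher. There Cox17, a copper chaperone for complex IV, had 0.19 ± 0.10, and Bcs1l, which inserts the Rieske protein, had 0.20 ± 0.11. Genes of mitochondrial DNA expression had a median of 0.03, with 8 of 12 higher, and its 2 genes with the smallest p had opposite signs, Lrpprc at 0.17 ± 0.10 and the mitochondrial RNA polymerase gene Polrmt at -0.10 ± 0.07. Regulators of biogenesis had a median of -0.01, with 6 of 12 higher. Gabpb1, the partner of the ETS protein GABPA, stood at 11.05 and 11.00 in the WT libraries, 11.24 and 10.98 in RelB-KO, 11.40 and 11.38 in Nfkb2-KO and 11.17 and 11.10 in DKO. Its Nfkb2-KO libraries were the 2 highest, with 0.36 ± 0.10 over WT. The limma adjusted p was 0.267, and 0.0473 with the replicate block, the 1 call among these lists. With the block, 2.91% of all tested genes were called in Nfkb2-KO against WT. The coactivator gene Ppargc1b went the other way, 7.42 and 7.25 in WT against 7.02 and 7.04 in Nfkb2-KO and -0.30 ± 0.12 (limma adjusted p = 0.461). In DKO the median was 0.17 for carriers and import (16 of 16 higher) and 0.12 for the citric acid cycle (17 of 18 higher), and in RelB-KO both stood at 0.02. As for the members, the DKO medians came from replicate 2, with 0.30 and 0.21 there and 0.03 and 0.00 in replicate 1.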

How the data were processed

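RNA from 8 Treg samples was sequenced from TruSeq libraries, with 30 M reads planned per sample. The deposited table gives, per the file headers, log2 RPKM that the authors had batch corrected. The un-logged values sum to 18.2 to 19.7 M per library, so they are treated as log2 expression not divided by gene length. The scale is shrunken for weakly expressed genes, and depth is unknown, so no counting interval is given. The authors also deposited log2 fold changes with p-values of each knockout against WT. STAR, DESeq2 1.10.1 and mm10 are named in the submitters' processing notes, without roles. A further 8 columns of per-sample values (z-scores) were not used. Of 22432 genes, 6247 were listed at 0 in all libraries, 1 had a blank cell, and 25 had symbols turned into dates.

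Genes averaging an un-logged value of 1 or more (13797) were fitted with limma 3.58.1 in R 4.3.3, with a mean per genotype over all 8 libraries, a variance trend and 4 residual degrees of freedom, and p-values were adjusted by Benjamini-Hochberg within each of 7 contrasts. The differences between replicate 1 and replicate 2 correlated across genes between genotypes at 0.81 to 0.89 in every pair, so the replicate numbers were taken to pair the samples. A fit with the number as a block (3 residual degrees of freedom) was made beside the other. It was tested on simulated data. Other alternatives left out each library, added a pseudocount of 1, dropped the low-value filter or the variance trend, rescaled the libraries, and changed which members counted.

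Exon lengths, positions and pseudogenes came from GENCODE M21 and promoters from RefSeq, both of the mm10 genome. Of the members, 82 matched by symbol, 1 by an older symbol and 1 (Atp5o) not at all. Copies were found with blastn 2.17.0 between annotated pseudogene and coding transcripts, at 95% identity over 150 bases. Named genes were those called in any contrast, the 3 per complex with the largest difference in Nfkb2-KO among those whose libraries separated, the 5 with the smallest p per knockout, the tissue isoforms, the genes at the replicate limit, the Sdh genes, and per list the 2 with the smallest p. The members, lists and rules were chosen with earlier results of these data known.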

Additional observations from a re-analysis of the deposited data

How the results depend on the processing

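The 0 called members in each of the 7 comparisons stayed 0 under all 16 alternatives. For the model without the block that says little of differences this small, since the 47 genes called in Nfkb2-KO differed by 0.33 or more. Of the 402 genes called there with the block, 23 lay below the largest member difference, and the smallest size was 0.05. With the replicate block, no call on a member changed, and the median differences were the same by construction. The median in RelB-KO against WT ranged from -0.0726 to 0.0590 when 1 library was left out, so its sign depended on the library. That in Nfkb2-KO ranged from 0.0863 to 0.186 and that in DKO from -0.0329 to 0.203. Quantile normalization gave 0.103 in Nfkb2-KO, with 73 of 81 higher. Of 560 alternative values for 40 named differences, 557 kept direction and call. None of the 40 was called without the block, so keeping the call meant staying uncalled. Many were picked from genes whose libraries separated, so leaving out 1 library could not reverse their direction. Gabpb1 was called with the block, with 0.36. Uqcrb in Nfkb2-KO ranged from -0.142 to 0.805 when 1 library was left out, with -0.142 without Nfkb2-KO replicate 2 and -0.0495 without WT replicate 1. Leaving out 1 library sets unequal replicates against each other, so such values also hold the replicate difference, a mean of -0.83 in Uqcrb. Within replicates Uqcrb was higher in Nfkb2-KO both times, 9.53 against 9.30 in replicate 1 and 10.48 against 10.06 in replicate 2. For the comparisons among the knockouts, whose alternatives were chosen after seeing the data, the median ranged from 0.0603 to 0.216 in Nfkb2-KO minus RelB-KO, from -0.0216 to 0.210 in DKO minus RelB-KO, from -0.188 to 0.0614 in DKO minus Nfkb2-KO and from -0.179 to 0.0538 in the interaction. With 2 libraries per genotype and unknown depth, differences near 0.1 are within the standard error of most members in the model without the block. With the block most members had a standard error below 0.1.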
